A study of Homo sapiens with 8 samples.

Results

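The regions described here are promoters that AML1-ETO occupied at both time points in U937 cells and at which ETO2-GLIS2 had no peak at either. Of the 104677 peaks in the AML1-ETO 48 h list on chromosomes 1 to 22, 1594 were of this kind. They were chosen on the peak lists themselves: a −log10 q of 10 or more in the 48 h list, a width under 8000 bp, a summit (the point of highest signal in a peak) within 1 kb of an annotated start site, at least 1 bp in common with a peak of the AML1-ETO 12 h list, and none in common with a peak of the ETO2-GLIS2 12 h or 48 h list. The first 4 criteria left 9880 persistent promoter peaks, of which the 1594 were 16.1%. In another 6703 of the 9880, the peak overlapped ETO2-GLIS2 peaks of both times, and these are called shared promoters below. A further 592 overlapped an ETO2-GLIS2 peak of 12 h only and 991 one of 48 h only. Strength at 48 h, presence at 12 h and absence of ETO2-GLIS2 were thus set by the choice. The DNA sequence, the 12 h fold enrichment and the genes were not used directly. They were still bounded by the need for a 12 h peak, a nearby start and no ETO2-GLIS2 peak. The position of the 12 h summit was bounded by the required overlap.

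The study induced AML1-ETO or ETO2-GLIS2, each with an N-terminal HA tag, in U937, a human monoblastic cell line, and sequenced the chromatin bound to anti-HA beads (ChIP-seq). Both proteins were switched on by doxycycline (5 µg/ml), given for either 12 or 48 h, from a retroviral vector, AML1-ETO in the stable line #4 and ETO2-GLIS2 in the stable line #14, each grown from a single cell. There was 1 ChIP library and 1 input library for each protein and time, 8 in all, and no ChIP from uninduced or empty-vector cells was among them. Nothing here therefore has a replicate check. No test between conditions was made, and the 95% intervals, given in brackets, cover counting error over peaks only. The protein, the clone and the depth of the libraries cannot be told apart as sources of a difference between the AML1-ETO and ETO2-GLIS2 lists. The ETO2-GLIS2 lists were shorter (28019 and 29784 peaks at 12 and 48 h, against 70063 and 104677). Of the ChIP libraries, that of ETO2-GLIS2 at the later time had the fewest reads, per the study's supplement. By the same source, each ETO2-GLIS2 ChIP library had fewer reads and a lower mapping rate than each AML1-ETO one. Peak lists hold no expression values, so the cell line was not checked against marker genes.

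AML1-ETO is the product of the t(8;21) translocation of acute myeloid leukaemia. It joins the Runt domain of RUNX1 (AML1), which binds the DNA sequence TGTGGT or TGCGGT, to nearly all of RUNX1T1 (ETO), which oligomerises and recruits corepressors with histone deacetylases. ETO2-GLIS2 carries the ETO-family protein CBFA2T3 (ETO2) and the zinc fingers of GLIS2, which bind a G-rich sequence, and it is found in acute megakaryoblastic leukaemia of children. Human promoters fall into a class with many CpG dinucleotides, typical of housekeeping genes and often transcribed in both directions, and a class with few, typical of genes used in particular cell types.

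The sequences at the summits show what the Runt matches looked like in these promoters. Each stretch below is the plus strand of hg19 (GRCh37), 50 bp to either side of the 48 h summit, and none touches an annotated exon. Capitals mark TGTGGT or TGCGGT, or on the minus strand ACCACA or ACCGCA. The first 4 are from regions with several Runt matches in 200 bp. In SSTR5-AS1, an antisense transcript, and in the unnamed lncRNA genes ENSG00000268199 and ENSG00000261978 the matches recur within a low-complexity run, and in MYOM3, which encodes a sarcomere protein, a pair of them overlap.
SSTR5-AS1 (chr16:1117741-1117840): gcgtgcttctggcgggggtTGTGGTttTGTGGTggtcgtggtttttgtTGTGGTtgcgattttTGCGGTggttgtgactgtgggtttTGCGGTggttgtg
ENSG00000268199 (chr19:18553017-18553116): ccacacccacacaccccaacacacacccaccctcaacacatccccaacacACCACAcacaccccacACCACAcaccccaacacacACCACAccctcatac
ENSG00000261978 (chr17:77998202-77998301): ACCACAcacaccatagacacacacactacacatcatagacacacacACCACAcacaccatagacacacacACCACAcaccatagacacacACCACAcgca
MYOM3 (chr1:24439132-24439231): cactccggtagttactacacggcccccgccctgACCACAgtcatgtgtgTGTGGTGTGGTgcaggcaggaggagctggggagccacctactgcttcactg
The next 4 are from strong regions of high CpG content that held a Runt match. The stretch at the miRNA gene MIR760 shows ACCACA, and the other stretches show ACCGCA, which contains a CpG. TP53BP1 encodes a protein of the DNA double-strand break response, and PCYT1A an enzyme of phosphatidylcholine synthesis.
ENSG00000263105 (chr16:4233664-4233763): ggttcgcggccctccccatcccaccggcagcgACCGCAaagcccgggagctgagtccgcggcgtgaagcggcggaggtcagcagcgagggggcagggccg
MIR760 (chr1:94312140-94312239): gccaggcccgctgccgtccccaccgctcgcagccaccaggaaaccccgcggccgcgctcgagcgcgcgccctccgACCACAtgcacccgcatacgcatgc
PCYT1A (chr3:196014917-196015016): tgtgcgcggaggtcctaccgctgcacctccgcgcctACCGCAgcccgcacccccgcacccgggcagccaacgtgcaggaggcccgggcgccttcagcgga
TP53BP1 (chr15:43802967-43803066): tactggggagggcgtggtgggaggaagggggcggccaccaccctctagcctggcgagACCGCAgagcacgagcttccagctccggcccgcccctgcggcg
The last 3 held a Runt match beside an AP-1 match, TGACTCA or TGAGTCA, which is also in capitals. ABCB6 encodes a porphyrin-related transporter of the ABC family, and the other two are lncRNA genes.
ABCB6 (chr2:220082636-220082735): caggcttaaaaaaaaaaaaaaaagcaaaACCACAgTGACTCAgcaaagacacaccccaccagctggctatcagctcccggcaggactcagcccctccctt
ENSG00000233096 (chr3:41013328-41013427): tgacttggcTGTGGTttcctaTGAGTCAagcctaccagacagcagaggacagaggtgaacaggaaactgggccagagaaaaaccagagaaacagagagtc
LINC01258 (chr4:38525648-38525747): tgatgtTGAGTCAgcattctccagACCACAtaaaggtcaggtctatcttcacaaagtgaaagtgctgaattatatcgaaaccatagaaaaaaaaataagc

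The fold enrichment (ChIP signal over local background at the summit) of the 1594 regions at 48 h ranged from 3.24 to 59.3 with a median of 8.28 (8.03 to 8.53). The shared promoters had a median of 18.1 (17.7 to 18.3), and persistent AML1-ETO only regions away from start sites, 4940 in number, had 7.30 (7.28 to 7.5). The median width was 1247 bp (1197 to 1294), against 2597 bp (2557 to 2646) at shared promoters. Lack of an ETO2-GLIS2 peak thus went with a weaker AML1-ETO peak. When the 9880 persistent promoter peaks were put into 10 equal groups by −log10 q, 42.5% (39.4 to 45.7) of the weakest group but 1.32% (0.702 to 2.24) of the strongest group were AML1-ETO only. At the limits of the choice, ENSG00000287774, ULK4P1 and ITPRIP had the lowest −log10 q that qualified (10.0, 10.0 and 10.1), and MCMBP, ENSG00000247193 and DSTNP4 missed it with 9.97, 9.96 and 9.92. The widest region was at RASGEF1C, with 7046 bp, and HK3, with 8136 bp, was the only region that met all criteria except width.

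The regions were of 2 kinds in CpG content. The ratio of observed to expected CpG dinucleotides in 1000 bp around the summit had a peak between 0.2 and 0.3, which held 15.2% of the regions, and another between 0.7 and 0.8, which held 16.8%, while the bin from 0.5 to 0.6 held 4.77%. With at least 55% GC and a ratio of at least 0.6 as the definition of CpG-rich, a limit set after the distribution had been seen, 594 regions (37.3%, 34.9 to 39.7) were CpG-rich and 1000 were CpG-poor. A region that missed either limit counted as CpG-poor. Some CpG-poor regions therefore had a ratio above 0.6 and missed only the GC limit. The CpG-rich share was 74.2% (73.1 to 75.2) at shared promoters and 1.36% (1.05 to 1.72) at persistent AML1-ETO only distal regions. The difference between AML1-ETO only and shared promoters was −36.9 percentage points (−39.5 to −34.3). Among peaks with a −log10 q between 10 and 20, a narrow range of strength, the shares were 24.6% and 60.8%, and the difference was −36.2 points (−40.8 to −31.2).

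**Figure D1:**
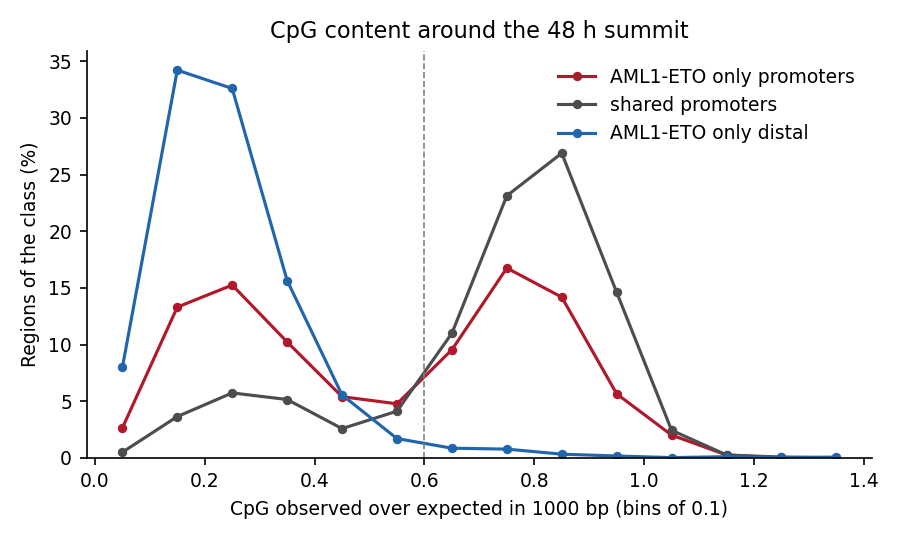
Share of regions (%) by CpG observed over expected in 1000 bp around the 48 h summit, in bins of 0.1, for AML1-ETO only promoters (n = 1594), shared promoters (n = 6703) and AML1-ETO only distal regions (n = 4940); the dashed line marks 0.6. AML1-ETO only promoters have both a low and a high peak, shared promoters mainly the high one and distal regions the low one.

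Seen from the promoters, 29.6% (28.1 to 31.2) of the 3380 CpG-poor and 9.14% (8.45 to 9.87) of the 6500 CpG-rich persistent AML1-ETO promoter peaks had no ETO2-GLIS2 peak. In the weakest of the 10 strength groups the shares were 52.7% (48.7 to 56.7) for CpG-poor and 25% (20.6 to 29.8) for CpG-rich promoters. In the strongest group they were 3.13% (0.858 to 7.81) and 1.05% (0.480 to 1.98), where the intervals met. They also met in the groups ranked 3 and 4 from the strongest. The shares there were 5.73% (3.08 to 9.59) and 2.89% (1.82 to 4.34), and 12.1% (8.31 to 16.8) and 7.97% (6.12 to 10.2). The CpG-poor share was the higher one in each of the 10 groups.

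**Figure D2:**
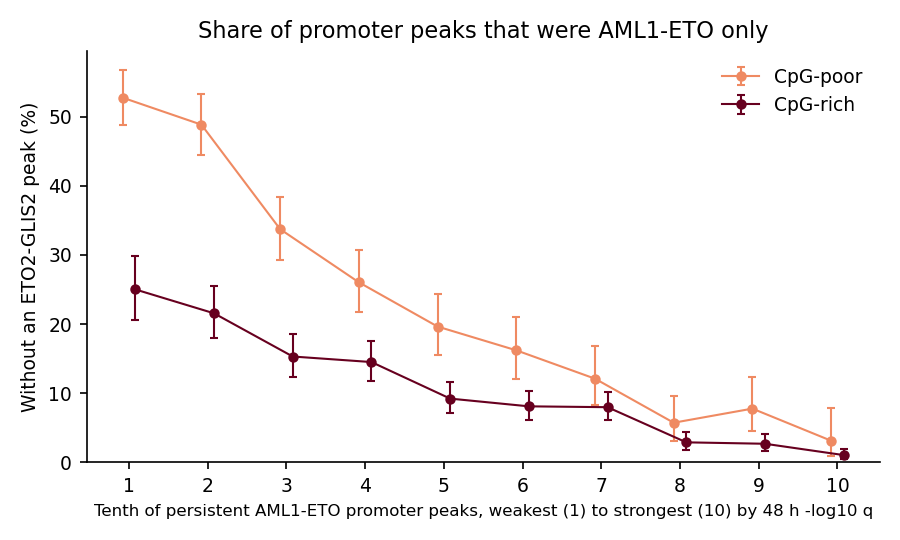
Share (%) of persistent AML1-ETO promoter peaks without an ETO2-GLIS2 peak, in 10 equal groups by 48 h −log10 q from weakest (1) to strongest (10), for CpG-poor and CpG-rich promoters; bars are exact 95% intervals. Both curves fall with strength, from 52.7% and 25% in the weakest group, and the CpG-poor curve lies above the other throughout.

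The 2 kinds of region also differed in the genes at which they lay. The CpG-rich regions were within 1 kb of a gene's canonical start (the start of the transcript chosen to represent the gene) in 93.9% (91.7 to 95.7), and 39.2% (35.3 to 43.3) of them had start sites on both strands. In CpG-poor regions, the shares were 54.5% (51.4 to 57.6) and 11.3% (9.40 to 13.4), so that many lay at alternative starts. The median distance from summit to start was 68 bp (62 to 80) in the CpG-rich and 258 bp (228 to 289) in the CpG-poor regions. The nearest start belonged to a protein-coding gene in 86.7% (83.7 to 89.3) of the former and 61.1% (58.0 to 64.1) of the latter, and to a lncRNA gene in 10.4% (8.10 to 13.2) and 24.5% (21.9 to 27.3). CpG-rich shared promoters gave 94.1% for canonical starts and 39.0% for starts on both strands, within 1 point of the CpG-rich AML1-ETO only promoters. CpG-poor AML1-ETO only promoters differed from CpG-poor shared ones by −4.25 points (−6.79 to −1.58) in starts on both strands, by −8.84 points (−12.6 to −5.14) in a protein-coding gene at the nearest start, and by −3.48 points (−7.34 to 0.379) in canonical starts. Over all 1594 regions, 1126 (70.6%, 68.3 to 72.9) were nearest to a protein-coding gene, 307 to a lncRNA gene, 51 to a processed pseudogene and 21 to a miRNA gene. Summits fell in an annotated exon in 45.3%, in an intron in 38.0% and between genes in 16.7%.

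The 12 h library, in which only the presence of a peak had been required, gave a second measurement of each region. The 12 h fold enrichment ranged from 1.74 to 48.0 with a median of 5.77 (5.74 to 6.08), and the 12 h width had a median of 606 bp (575 to 635). The median ratio of the 12 h to the 48 h value of the same region was 0.668 (0.653 to 0.680) for the fold and 0.510 (0.490 to 0.536) for the width. A higher fold at 12 h than at 48 h was seen in 230 regions (14.4%, 12.7 to 16.3). It was seen in 18.9% (16.5 to 21.5) of CpG-poor but 6.90% (5.00 to 9.25) of CpG-rich regions, and the shared promoters had the same split, at 18.2% and 7.2%. Fold values of 2 libraries are not on a common scale, so their ratio does not give a change in binding. The summits of both times were 60 bp apart in the median (52 to 69) and within 50 bp in 46.9% of the regions. The largest distance was 2195 bp, so a 12 h fold may be measured away from the 48 h summit. The peaks had to overlap, and the 12 h peak with the nearest summit was taken, so the choice bounded this distance. Across the 1594 regions the folds of both times had a Spearman correlation of 0.62, and the widths one of 0.51. Both libraries came from the same line, and strength and width were limited by the choice of regions.

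**Figure D3:**
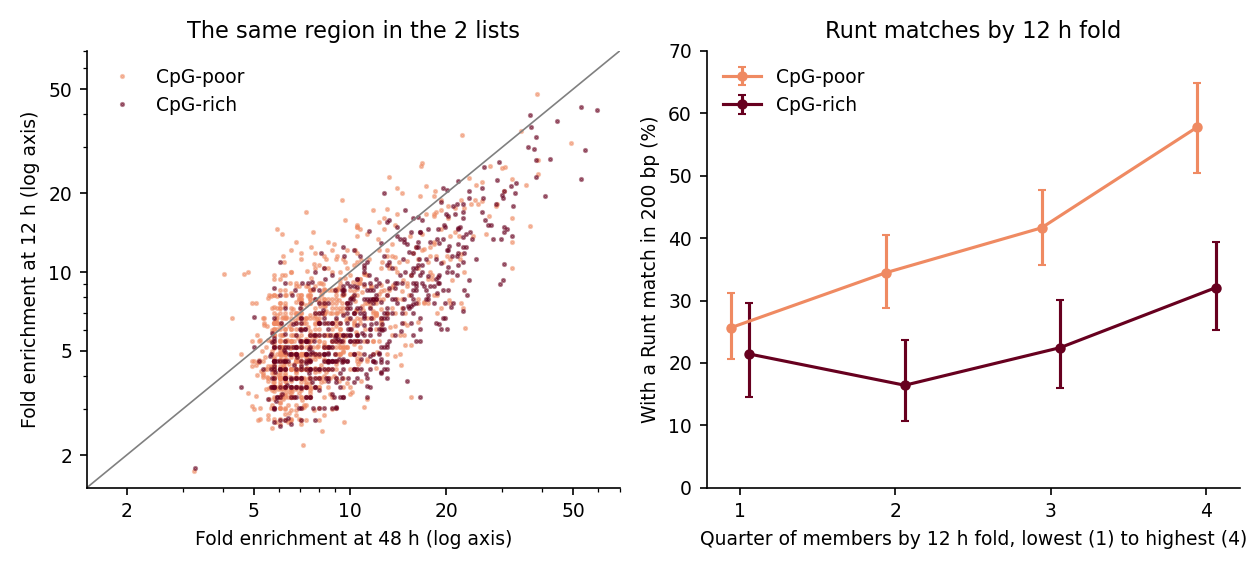
Left, fold enrichment at 12 h against 48 h for each of the 1594 AML1-ETO only promoters, both on log axes, with the line of equal values; most points lie below it. Right, share (%) with a Runt match in 200 bp at the 48 h summit, in 4 groups by 12 h fold from lowest to highest, with exact 95% intervals; the CpG-poor share rises from 25.6% to 57.7%.

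A Runt match lay within 200 bp around the 48 h summit in 526 of the 1594 regions (33.0%, 30.7 to 35.4). Windows 1 kb to either side of the same summits held one in 16.1% (14.9 to 17.4), and windows of the same length at the start of all 18898 annotated protein-coding genes in 13.1% (12.6 to 13.5). The share was 24.6% (23.5 to 25.6) in shared promoters and 43.9% (42.5 to 45.3) in AML1-ETO only distal regions, so the AML1-ETO only promoters stood between them, with a difference of 8.44 points (5.95 to 11) from the former and −10.9 points (−13.5 to −8.15) from the latter. Late AML1-ETO only promoters, the 327 that had a peak at 48 h but none at 12 h, had 23.5% (19.1 to 28.5). At least 2 matches were found in 95 regions (5.96%, 4.85 to 7.24).

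The difference from shared promoters was smaller within each CpG class. CpG-poor AML1-ETO only promoters held a Runt match in 38.5% (35.5 to 41.6) and CpG-poor shared promoters in 36.6%, a difference of 1.91 points (−1.84 to 5.70). For CpG-rich promoters the shares were 23.7% (20.4 to 27.4) and 20.4%, with a difference of 3.37 points (−0.0737 to 7.11). Both intervals include 0, and they do not exclude differences of several points. In weak peaks, with a −log10 q between 10 and 20, the CpG-rich shares were 19.8% and 11.2%, a difference of 8.59 points (2.44 to 15.5), and the CpG-poor shares 33.0% and 29.2%, a difference of 3.88 points (−2.93 to 10.4). Both kinds of AML1-ETO only promoter exceeded the protein-coding gene starts of the same CpG class, which had 15.6% (CpG-poor) and 11.5% (CpG-rich). The letters of the matches differed between the classes. TGTGGT alone was found in 29.3% of CpG-poor regions, 15.7 points (12.5 to 18.9) more than in their flanks, and in 8.25% of CpG-rich regions, where the difference from the flanks was −2.95 points (−5.68 to 0.0515). Against protein-coding gene starts of the same class, the difference in TGTGGT was 18.2 points (15.4 to 21.2) in CpG-poor and 4.06 points (2.07 to 6.57) in CpG-rich regions, and that in either sequence 22.9 points (19.9 to 26.1) and 12.3 points (8.98 to 15.9). Matches were most frequent at the summit itself. In the CpG-poor regions there were 0.165 and 0.159 matches per region in the 50 bp to either side of the summit and 0.036 and 0.046 in the outermost bins, 450 to 500 bp away. In the CpG-rich regions the values were 0.0724 and 0.0892 at the summit and 0.0337 and 0.0253 at the edges.

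**Figure D4:**
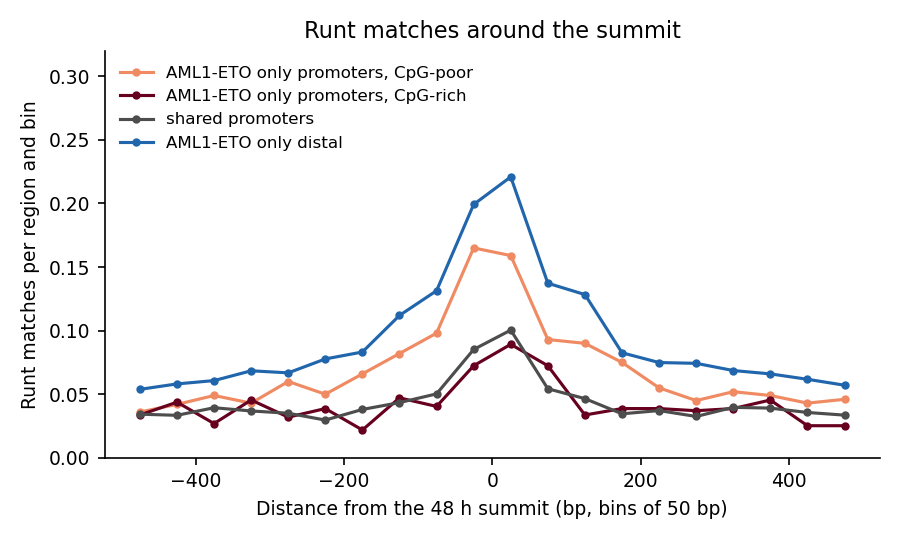
Runt matches per region in bins of 50 bp by distance (bp) from the 48 h summit, for CpG-poor (n = 1000) and CpG-rich (n = 594) AML1-ETO only promoters, shared promoters (n = 6703) and AML1-ETO only distal regions (n = 4940). The rise at the summit reaches 0.165 in CpG-poor and 0.0892 in CpG-rich AML1-ETO only promoters.

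The Runt share rose with the 12 h fold enrichment, a measure that the choice did not use beyond the presence of a peak. In 4 groups of about equal size by 12 h fold, with medians of 3.65, 5.01, 7.05 and 11.8, it was 24.3% (20.2 to 28.8), 28.2% (23.9 to 32.9), 34.9% (30.3 to 39.7) and 45.3% (40.2 to 50.5). The highest group exceeded the lowest by 21.0 points (14.4 to 27.4). In CpG-poor regions alone the shares were 25.6%, 34.5%, 41.6% and 57.7% (50.4 to 64.8), and in CpG-rich regions 21.4%, 16.4%, 22.4% and 32% (25.3 to 39.4). The CpG-rich share rose as well, from 31.6% in the lowest to 48.3% in the highest group. Ordered by the 48 h fold, which the choice had limited through the −log10 q, the shares were 32.1%, 26.6%, 35.7% and 37.8%.

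The G-rich sequence TGGGGGG, the core of the published GLIS site, was rarer in AML1-ETO only promoters than in shared ones. It was found in 35 of the 1594 windows (2.2%, 1.53 to 3.04) against 6.4% (5.83 to 7.01) of shared promoters, and the difference of −4.20 points (−5.07 to −3.19) was of like size in CpG-rich promoters (1.85% against 5.83%) and CpG-poor promoters (2.40% against 8.03%). All protein-coding gene starts held it in 5.37%, and the windows 1 kb away from the summits of the AML1-ETO only promoters in 3.86% (3.22 to 4.59). The AML1-ETO only promoters were chosen by the absence of ETO2-GLIS2 and the shared promoters by its presence. The low share in the former and the difference between them may therefore follow from the choice. In peaks with a −log10 q between 10 and 20, the difference was −4.66 points (−7.03 to −2.45) in all and −2.89 points (−6.15 to 1.29) in CpG-rich promoters, where the interval included 0.

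Sequences of other factors followed the CpG class. The AP-1 sequence was found in 8.90% of CpG-poor and 0.842% of CpG-rich regions, the C/EBP sequence TTGCNNAA in 14.0% and 2.36%, and CANNTG, the E-box of bHLH proteins, in 65.1% and 40.7%. GGGCGG, the GC box of the SP1 family, showed the opposite order, with 14.1% and 62%, as did the long ETS sequence CCGGAAGT, with 0.800% and 4.38%. In CpG-poor regions AP-1 exceeded its flanking share by 6.05 points (4.24 to 8.08) and C/EBP by 4.50 points (2.07 to 7.09). The E-box was found in 64.25% of the flanks of CpG-poor and 62.3% of those of CpG-rich regions. Protein-coding gene starts of the same CpG class held it in 62.3% and 39.7%. E-box shares at the summits were thus near these values or, against the CpG-rich flanks, below them. In CpG-rich regions ETS exceeded its flanking share by 4.38 points (2.97 to 6.34), with no match in 1188 flanking windows, which allows a share of up to 0.253% by the limit of 3 counts and up to 0.310% by the exact interval. Against CpG-rich protein-coding gene starts, which held it in 6.73%, the difference was −2.36 points (−3.81 to −0.349). A Runt and an AP-1 match in the same 200 bp were found in 35 regions, 33 of them CpG-poor, which is 2.2% (1.53 to 3.04) of all against 0.821% (0.619 to 1.07) of shared promoters. Within the CpG-poor class the shares were 3.3% (2.28 to 4.60) and 2.25% (1.61 to 3.07), and the intervals met. Within the CpG-poor class AP-1 was found in 8.15% of shared promoters, and the AML1-ETO only promoters differed from them by 0.750 points (−1.37 to 3.02). In weak peaks (−log10 q of 10 to 20) of that class the shares were 8.8% and 2.95%, a difference of 5.85 points (2.39 to 8.86). GC boxes differed from shared promoters by −10.3 points (−13.2 to −7.27) in CpG-poor and −8.35 points (−12.5 to −4.32) in CpG-rich promoters. In weak peaks the CpG-rich difference was −1.04 points (−9.64 to 7.36). All protein-coding gene starts held the AP-1 sequence in 2.1%, the C/EBP sequence in 4.31%, the E-box in 48.5%, the GC box in 54.0% and the long ETS sequence in 5.20%. Matches to CANNTG include sites of many unrelated proteins, and the short sequences overlap with each other by chance.

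Of the 10 strongest regions by 48 h fold, 7 were CpG-rich. MARCHF3, a membrane-bound ubiquitin ligase gene, had a fold of 59.3 at 48 h and 41.5 at 12 h, and its nearest ETO2-GLIS2 peak was 58949 bp away. ZNF529, a zinc finger gene, had 54.3 and 29.2. The start shared by C6orf62 and the lncRNA ENSG00000288851 had 52.9 and 42.5, and that shared by MRPL32, of the mitochondrial ribosome, and PSMA2, of the proteasome, had 52.8 and 22.7. A region within ATF7IP, a partner of the histone methyltransferase SETDB1, had 49.2 and 31.0 at the start of ENSG00000290040 and held 2 Runt matches. It was CpG-poor only by its GC content of 48.8%, with a CpG ratio of 0.968. PIP4P1, a lysosomal phosphoinositide phosphatase gene that shares its start with the purine enzyme gene PNP, had 44.4 and 37.7. PARS2, the mitochondrial prolyl-tRNA synthetase gene, had 42.3 and 26.9, and SLC29A3, a nucleoside transporter gene, had 38.8 and 23.7. Such strong regions were few among promoters of like strength, as the plot of shares by strength shows.

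Ordered by the 12 h fold, the first was SSTR5-AS1 with 48.0 at 12 h and 38.6 at 48 h, whose summit held 7 Runt matches in 200 bp. BRD9, a bromodomain subunit of a chromatin remodelling complex, had 33.4 at 12 h and 22.5 at 48 h in a CpG-poor region with 3 Runt matches. FHIP1A-DT had 34.6 at 12 h and 34.4 at 48 h with 2 matches. In contrast, ZBED5-AS1 (39.8 at 12 h and 36.6 at 48 h), CENPF, a kinetochore gene (35.9 and 36.9), and UBQLN1-AS1 (32.8 and 38.1) were CpG-rich and had no Runt match in the window. The most matches in 200 bp were 9 at SCYGR10 and 8 at ENSG00000268199, with 48 h folds of 18.3 and 7.28. SCYGR1, of the same small family as SCYGR10, had 5. These family members resemble each other in sequence, so reads may be shared between copies.

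The regions lay within 1 kb of a start of 1320 protein-coding genes, which is 6.87% of the 19222 on chromosomes 1 to 22. Of the 8768 protein-coding genes with any persistent AML1-ETO promoter peak, 15.1% had an AML1-ETO only one. The gene as a whole was often not free of ETO2-GLIS2: 283 of the 1320 (21.4%) also had a shared promoter peak at another start, and 570 of the 1093 protein-coding genes nearest to a region (52.2%, 49.1 to 55.1) had an ETO2-GLIS2 peak somewhere within the gene. Lists of genes with roles in blood cells or in basic cell functions were counted against the 6.87%. Each list has its own 95% interval, with no allowance for the number of lists compared. Since starts of neighbouring genes can lie within 1 kb of the same summit, a region may stand for a gene next to the listed one.

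**Figure D5:**
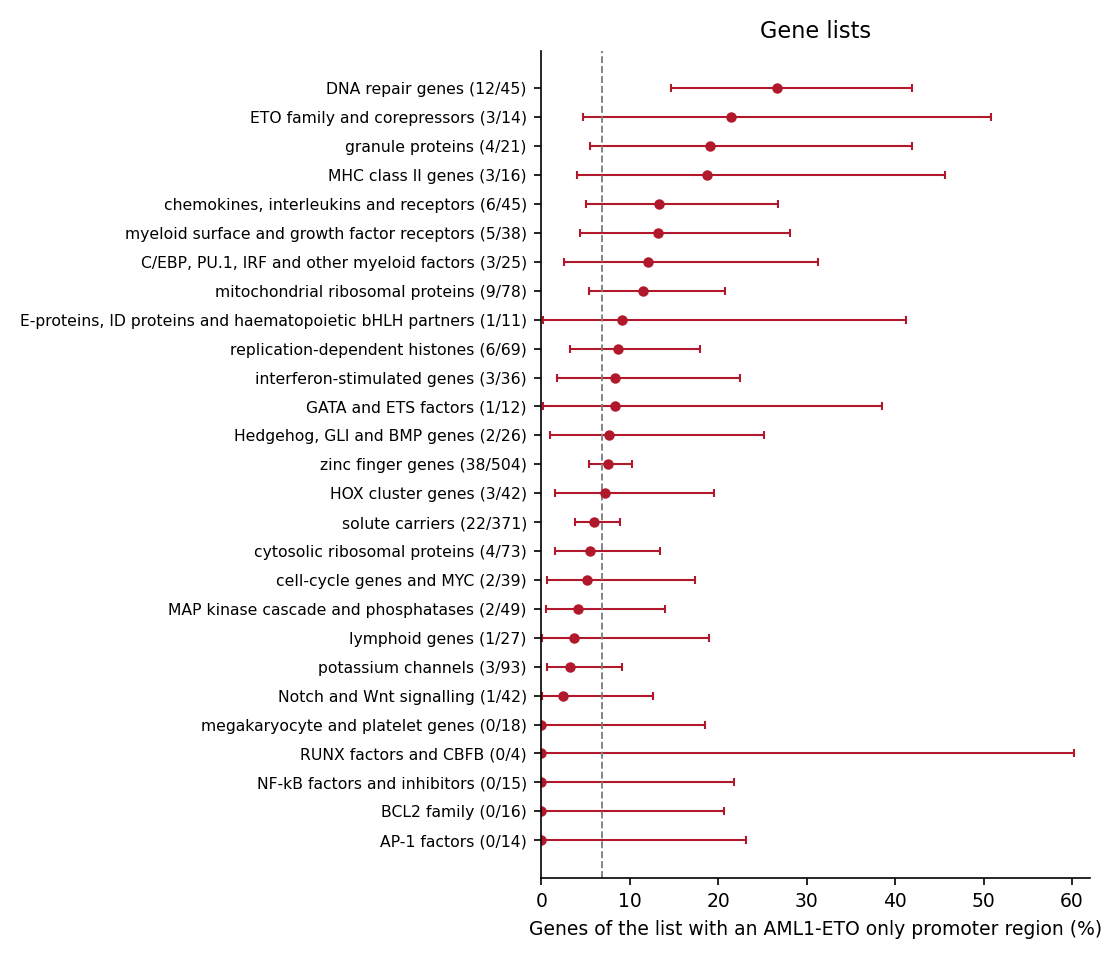
Share (%) of the genes of each list that had an AML1-ETO only promoter region within 1 kb of a start, with exact 95% intervals; counts are in brackets and the dashed line marks the 6.87% of all protein-coding genes. Among the lists, the interval of DNA repair genes (14.6 to 41.9) lies above the line, with no allowance for the number of lists.

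DNA repair genes had the highest share, with 12 of 45 (26.7%, 14.6 to 41.9). The list was also high for shared promoters, which 25 of the 45 had (55.6%), against 6463 of all 19222 protein-coding genes. A high share was thus not particular to AML1-ETO only promoters. The 12 genes are described next. Of the 36 with any persistent AML1-ETO promoter peak these were 33.3%, a share that was as high or higher in the granule protein list (4 of 12) and the MHC class II list (3 of 4). They included ATM, ATR and CHEK2, the kinases that signal DNA damage, with 48 h folds of 13, 9.01 and 16.3 and 12 h folds of 15.5, 8.51 and 10.6. TP53BP1 had 29.6 and 9.02. RAD50 (15.6 and 9.72) and MRE11 (8.78 and 6.38) encode partners in the complex that binds broken ends. XRCC4, XRCC5 and XRCC6, of non-homologous end joining, had 48 h folds of 6.27, 6.27 and 6.02. ERCC4 and XPA, of nucleotide excision repair, had 11 and 9.79, and LIG3, a DNA ligase gene, had 6.27. Of these 12 regions, 7 were CpG-rich, against 37.3% of all 1594 regions, and 4 held a Runt match, against 33.0%. At 7 of the 12, the region lay at the start of another protein-coding gene too (NPAT beside ATM, HSCB beside CHEK2, MAP1A beside TP53BP1). ATM was the only one besides LIG3 with a higher fold at 12 h than at 48 h. At LIG3 the 12 h summit lay 1865 bp from the 48 h summit, more than the 1604 bp width of the region.

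The granule protein genes with a region were 4 of 21 (19%, 5.45 to 41.9). They were CTSG, cathepsin G, with folds of 21.3 at 48 h and 17.6 at 12 h, SRGN, the granule proteoglycan, with 5.93 and 4.86, LYZ, lysozyme, with 5.77 and 5.77, and MMP9, a gelatinase, with 5.77 and 3.6. Of myeloid surface and receptor genes, 5 of 38 had one (13.2%, 4.41 to 28.1): ITGAM, the CD11b integrin chain (18.3 and 13.1), CD33, a sialic acid-binding receptor (11.8 and 6.68), CD44, a hyaluronan receptor (10.3 and 6.29), FPR1, the formyl peptide receptor (6.27 and 3.95), and CD86, a costimulatory ligand (6.02 and 5.77). All 9 of these regions were CpG-poor, as were 1000 of the 1594 regions in all, and 4 held a Runt match, as did 526 of the 1594.

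Of the myeloid transcription factor genes, 3 of 25 had a region (12.0%, 2.55 to 31.2). KLF2, a zinc finger factor gene, had 23.8 at 48 h and 14.2 at 12 h at a CpG-rich promoter. IRF8, a factor of monocyte and dendritic cell development, had 10.8 and 9.11 at a CpG-poor region with a Runt match, 1323 bp from the nearest ETO2-GLIS2 peak. CEBPE, a factor of late granulocyte maturation, had 6.52 and 5.16, with an ETO2-GLIS2 peak 60 bp away. Among genes of chemokines, interleukins and receptors it was 6 of 45 (13.3%, 5.05 to 26.8), all CpG-poor, as were 1000 of the 1594 regions. The region at IL6ST was CpG-poor only by its GC content of 53%, with a CpG ratio of 0.859. CCL22 had 12.8 at 48 h and 16.1 at 12 h, CCL3 had 12.5 and 7.23, CCL4 had 8.78 and 6.99, CXCL8 (interleukin 8) had 7.03 and 5.16, the receptor gene CCR7 had 6.02 and 3.95, and IL6ST, the shared receptor chain of the interleukin 6 family, had 9.54 and 6.99.

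The MHC class II list had 3 of 16 (18.8%, 4.05 to 45.6). These were not antigen-presenting molecules but the factors that switch their genes on: CIITA, the class II transactivator (7.53 and 4.25), RFX5 (7.78 and 4.77) and RFXAP (17.3 and 11.2), both subunits of the RFX complex. No gene of that list had a shared promoter, but only 4 of the 16 had any persistent AML1-ETO promoter peak. Of all 19222 protein-coding genes, 6463 had a shared promoter. An ETO2-GLIS2 peak of 12 h lay 261 bp from the RFX5 region. Corepressor and ETO-family genes had 3 of 14 (21.4%, 4.66 to 50.8), namely CBFA2T2 (MTGR1), a paralogue of ETO, with 23.6 and 19.1, TBL1XR1, of the NCoR complex, with 15.1 and 8.81, and SIN3B with 7.78 and 7.29. TBL1XR1 and SIN3B held 2 Runt matches each. Interferon-stimulated genes had 3 of 36 (8.33%, 1.75 to 22.5), IFI6, IFIT1 and IFIH1, each with a 48 h fold of 8.28.

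Among the housekeeping lists, mitochondrial ribosomal protein genes had 9 of 78 (11.5%, 5.41 to 20.8), led by MRPL32 and by MRPL51 with 26.1 and 19.3. Cytosolic ribosomal protein genes had 4 of 73 (5.48%, 1.51 to 13.4), led by RPS16 with 30.4 and 14.9. That region lay nearest to a start of SUPT5H. Zinc finger genes had 38 of 504 (7.54%, 5.39 to 10.2) and solute carrier genes 22 of 371 (5.93%, 3.75 to 8.84), both near the background. The cell-cycle list had 2 of 39 (5.13%, 0.627 to 17.3). CDKN2C, a CDK inhibitor gene, had 30.1 and 19.1, in a region nearest to a start of FAF1. AURKA, a mitotic kinase gene, had 15.8 and 10.0, in a region nearest to a start of CSTF1. Histone genes had 6 of 69 (8.70%, 3.26 to 18.0), HOX genes 3 of 42 (7.14%, 1.5 to 19.5), Hedgehog, GLI and BMP genes 2 of 26 (7.69%, 0.946 to 25.1), MAP kinase genes 2 of 49 (4.08%, 0.498 to 14.0) and potassium channels 3 of 93 (3.23%, 0.670 to 9.14). E-protein and partner genes (1 of 11, TCF4), GATA and ETS factors (1 of 12, ERG), lymphoid genes (1 of 27, BCL11A) and Notch and Wnt genes (1 of 42, WNT1) had 1 gene each. No region was found at the 4 RUNX and CBFB genes, the 14 AP-1 genes, the 15 NF-kB genes, the 18 megakaryocyte and platelet genes or the 16 BCL2 family genes. The upper limits of these intervals ran from 18.5% to 60.2%, so none of them lies below 6.87%. Any persistent AML1-ETO promoter peak was found at 3, 10, 12, 0 and 9 genes of these lists, in the order named. At the megakaryocyte and platelet genes an AML1-ETO only region was thus not possible. Except for DNA repair, the interval of every list named here that had a region included 6.87%.

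The distance to ETO2-GLIS2 varied widely. The nearest ETO2-GLIS2 peak of either time was 14813 bp away in the median (13344 to 16764), 27694 bp (22266 to 31596) for CpG-rich and 10652 bp (9397 to 12418) for CpG-poor regions. No ETO2-GLIS2 peak lay within 10 kb of 935 regions (58.7%, 56.2 to 61.1). An ETO2-GLIS2 peak lay within 1 kb, but without contact, at the regions other than 1433 (89.9%, 88.3 to 91.3), and there the criterion of 1 bp turned on the borders of peaks. SEC24A, of the secretory coat, had one 3 bp away, and BMI1, a polycomb gene, one 6 bp away. At the other end were SRFBP1, 1460526 bp from the nearest one, and KCTD3, 1008666 bp from it.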

How the data were processed

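The 4 peak lists, 1 for each ChIP library, were analysed, and groups came from the sample titles. For the 12 h samples the treatment protocol names 48 h, and the time in titles and characteristics was used. The authors aligned the reads to hg19 and called peaks against input. The submitters' processing notes name Bowtie2 2.2.9, SAMtools 1.7, MACS2 2.1.1.20160309 and deepTools. MACS2 settings are not given in the sources used here. The deposited fold enrichment is a linear ratio, the deposited −log10 p and q are those of the caller, the score the authors deposited is derived from q, and start, end and summit are other deposited columns, in bp. The lists hold no read counts, and the read numbers and mapping rates in the study's supplement served only to compare the ChIP libraries. Fold and −log10 q depend on depth, so values of different lists are not on a common scale.

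Members were taken by the stated criteria. Members and gene lists were chosen with earlier results of these data known. Every transcript start in GENCODE release 44, in its GRCh37 version, counted as a start site, and sequences were read from the GRCh37 genome. Motif matches on either strand were counted with Python 3.11.15, pandas 2.3.3 and pysam 0.24.0 in 200 bp around the summit. For shares, exact Clopper-Pearson intervals were computed with scipy 1.17.1, for differences Newcombe intervals and for medians order-statistic intervals, all at 95%, and no p-value was computed. Peaks that share a gene, a repeat or a neighbourhood are not independent. The code was tested on simulated data and found the planted sites in 3000 of 3000 windows, and overlaps differed from those of bedtools for 0 of 24167 peaks.

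Genes named were the 10 regions with the highest 48 h fold and the 10 with the highest 12 h fold, the widest, those next to the limits, those with the most Runt matches and the 3 of each list with the highest 48 h fold. Further genes of a list, the regions nearest to and farthest from ETO2-GLIS2 and the CpG-rich, AP-1 and X-linked examples were named after their values were seen. Gene list symbols were matched to GENCODE on chromosomes 1 to 22. A further gene list is not reported here. The alternatives were other limits on q, promoter size, overlap, width and ETO2-GLIS2 distance, other motif windows and sequences, the 12 h summit and weak peaks only. Splitting by CpG class was added after seeing the data.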

Additional observations from a re-analysis of the deposited data

Results flagged for a closer look

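Chromosome X lay outside the chosen chromosomes, and its peaks had not entered any comparison. There, 66 of 201 persistent AML1-ETO promoter peaks had no ETO2-GLIS2 peak, which is 32.8% (26.4 to 39.8), against 16.1% on chromosomes 1 to 22. On the autosomes the share ran from 6.96% (3.05 to 13.2) on chromosome 21 to 21.1% (16.4 to 26.5) on chromosome 20. Peaks on X were also weaker, with a median −log10 q of 34.5 (27.6 to 40.5) against 52.2 (51.1 to 54.4). Among peaks with a −log10 q of at least 50 the share was 25.4% (15.5 to 37.5) on X, 17 of 67 peaks, and 5.72% (5.10 to 6.39) on the autosomes. Between 20 and 50 it was 28.0% (18.7 to 39.1) and 19.4% (18.0 to 20.9), and between 10 and 20 it was 50% (35.8 to 64.2) and 39.5% (37.2 to 41.7), and in both ranges the intervals met. The strongest such regions were at MTCP1, with a 48 h fold of 48.2, and at RPL10, a ribosomal protein gene, with 26.8. The number of X chromosomes in the AML1-ETO and ETO2-GLIS2 lines was not analysed here, and the cause was not tested.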

How the results depend on the processing

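Of 79 alternatives, 43 stayed within the interval of the value reported (for the count of regions, within 1.5 times). The others follow. The Runt difference from shared promoters, the only one of these results that has a sign, kept it. The differences in CpG, GLIS, AP-1 and GC box sequences were not recomputed here beyond the CpG classes and weak peaks given with them. With a −log10 q of 5 in place of 10, there were 2494 regions, the Runt share was 29.7%, its excess over shared promoters 5.58 points, the median CpG ratio 0.395, the median distance between summits 89 bp and that to ETO2-GLIS2 10341 bp. With 20, there were 855 regions with a Runt share of 35.8%, a CpG ratio of 0.696, distances of 37 bp and 19091 bp, and the protein-coding share was 75%. With promoters of 500 bp, the CpG ratio was 0.685, the protein-coding share 74.7% and the distance to ETO2-GLIS2 17921 bp. With 3 kb, there were 2513 regions, a Runt share of 35.5%, a CpG ratio of 0.328, a protein-coding share of 65.5% and a distance of 11119 bp. When promoters were defined by protein-coding genes alone, the CpG ratio was 0.687 and the protein-coding share 93.5%, and counting any protein-coding start within 1 kb gave 75.5%. When 12 h peaks had to cover 50% of the region, 899 were left, with a Runt share of 36.0% and a distance of 17298 bp. Without regions that had ETO2-GLIS2 within 1 kb the distance was 18730 bp, and to the 48 h ETO2-GLIS2 list alone it was 22151 bp. In windows of 100 bp the Runt share was 21.8%, its excess 5.45 points and the ETS share 1.32%. TGTGGT alone was found in 21.5%, and GGAA in place of the long ETS sequence in 85.8%. The Runt excess was 11.5 points with a −log10 q of 10 to 20, and, in alternatives added after seeing the data, 3.37 points in CpG-rich and 1.91 points in CpG-poor regions, where the intervals include 0. No paired analysis was possible because the result comes from no test, with 1 library for each condition. Whether ETO2-GLIS2 peaks were missed for lack of reads was not tested, and the weakest AML1-ETO peaks held the largest share of AML1-ETO only promoters.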

Other observations

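Some genes had more than 1 AML1-ETO only promoter region. Of the 1555 genes that were nearest to a region, 38 were nearest to more than 1. BLM, a RecQ helicase gene of homologous recombination that was not on the DNA repair list, was nearest to 3. RPS13, of the small ribosomal subunit, had a CpG-rich region with a 48 h fold of 8.28 and a CpG-poor one with 6.02. Their CpG ratios were alike (0.706 and 0.713), and the class differed by GC content (55.1% and 53.6%). These genes were picked after their values had been seen.

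Promoters that had an ETO2-GLIS2 peak at 1 time only stood between the AML1-ETO only and the shared promoters. The CpG-rich share was 37.3% in AML1-ETO only promoters, 47.0% (42.9 to 51.1) in those with an ETO2-GLIS2 peak at 12 h only, 66.1% (63.1 to 69.0) in those with one at 48 h only, and 74.2% in shared promoters. The median AML1-ETO fold at 48 h followed the same order, with 8.28, 10.3, 11 and 18.1. The shares with a Runt match were 33.0%, 29.9% (26.2 to 33.8), 25.8% (23.1 to 28.7) and 24.6%.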
